A study of Mus musculus with 11 samples.

Results

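Mir675 and Mir483 are microRNA (miRNA) genes inside the imprinted genes H19 and Igf2, and their levels are described here over the reprogramming of mouse fibroblasts to pluripotent cells. They are 2 of the 3859 small RNA genes in the table of FPKM (fragments per kilobase of transcript and per 1000000 mapped fragments). They were chosen by name, with their FPKM in these libraries already known, so their levels, folds and slopes are a description with no test. Small RNA came from cells labelled Mbd3f/-, in which 1 copy of Mbd3 is floxed and the other deleted. Mbd3 belongs to the chromatin remodelling complex NuRD. The cells also carried a doxycycline-inducible cassette for Oct4, Klf4, Sox2 and Myc. The 11 libraries were 1 each of uninduced embryonic fibroblasts (MEF), of days 1 to 8 after doxycycline, of an established induced pluripotent stem cell (iPSC) line and of an embryonic stem cell (ESC) line. Per the labels, days 3 to 8 and both lines were plated on irradiated human foreskin fibroblasts, no such feeders are named for MEF and days 1 and 2, and inhibitors of MEK and GSK3 were added along the way. Their day of addition is given differently in different places, and feeders, medium and time cannot be told apart. For ESC the label also reads Mbd3f/-, yet the design text names V6.5 as the ESC line, and V6.5 heads its column. This leaves unclear the genotype of that line and whether it carried the cassette.

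H19 and Igf2 share an imprinted domain in which H19 RNA, a long noncoding RNA, is made from the maternal chromosome and Igf2, which encodes an insulin-like growth factor, from the paternal one. Both are abundant in embryonic mesoderm and muscle and are shut down in most tissues after birth. miR-675 is cut from H19 RNA and in mouse placenta restrains growth, with the receptor gene Igf1r among its targets. miR-483 comes from an Igf2 intron and in human cells has been linked to tumour growth.

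On GRCm38, Mir675 (ENSMUSG00000076275) lies at chr7:142577064-142577147 and Mir483 (ENSMUSG00000070140) at chr7:142654924-142654996, both on the minus strand and 77.8 kb apart. Mir675 is exonic in 3 of the 7 annotated H19 transcripts and in exon 1 of 2 of these. Mir483 is intronic in 7 of the 9 Igf2 transcripts. Within 1 Mb of the pair the table held 5 other genes, none of them in H19 or Igf2, and 3 of these reached a mean of 10 FPKM. The hairpins, from RefSeq on GRCm38.p6, are shown because each gives a pair of mature miRNAs. They are written 5′ to 3′ with the mature arms in capitals.
Mir675: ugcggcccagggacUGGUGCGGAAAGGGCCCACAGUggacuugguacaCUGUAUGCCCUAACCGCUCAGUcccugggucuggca
Mir483: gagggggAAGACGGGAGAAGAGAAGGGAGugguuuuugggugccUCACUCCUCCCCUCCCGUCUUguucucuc

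The mature sequences follow with the seed, bases 2 to 8, in capitals, since the seed guides pairing with target mRNAs.
mmu-miR-675-5p: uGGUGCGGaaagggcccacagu
mmu-miR-675-3p: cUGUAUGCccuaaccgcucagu
mmu-miR-483-5p: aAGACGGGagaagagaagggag
mmu-miR-483-3p: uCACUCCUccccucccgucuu
The 4 seeds differ from each other. None of the 1738 mature miRNAs in the RefSeq table from other genes shares one of them, and no other hairpin among 1005 holds any of the 4 mature sequences. The hairpins were rich in G and C, at 63.1% for Mir675 and 58.9% for Mir483, against a median of 51.7% over all hairpins in that table. The deposited values are per gene, so the arms of a hairpin cannot be separated. Where H19 transcripts hold Mir675 in an exon, other pieces of H19 RNA from within the hairpin cannot be told from the mature arms either.

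**Figure D1:**
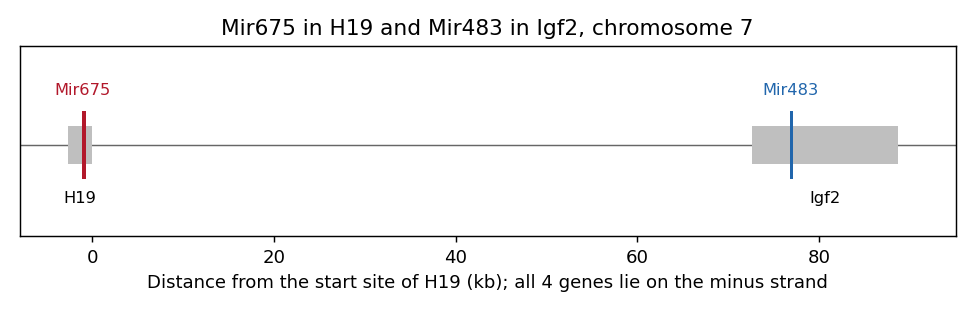
Positions of Mir675 (red) and Mir483 (blue) within the host genes H19 and Igf2 (grey) on mouse chromosome 7, as distance in kb from the H19 start site. All 4 genes are transcribed from right to left, the miRNAs are drawn wider than their 84 and 73 nt, and 77.8 kb separate them.

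Implied mapped reads, worked out from the spacing of low values, ran from 11600000 in MEF to 21900000 on day 7. The small RNA table took between 44.8% and 59.0% of these in all libraries but days 7 and 8, where it took 22.6% and 27.6%. For Mir675, 84 nt long, 1 read was worth between 22.9 FPKM on day 7 and 43.3 in MEF. For Mir483, 73 nt long, it was worth between 34.2 and 64.7 in the same libraries. Counting intervals below are exact Poisson intervals at 95% on recovered reads, and those of ratios are exact binomial ones. They cover counting error only, since each stage had 1 library and PCR copies of a molecule are not independent.

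Mir483 was highest in MEF and lower at each of the 8 steps to day 8. Its FPKM was 120719 in MEF, 64283 on day 1, 17656 on day 2, 10501 on day 3, 7776 on day 4, 1551 on day 5, 865 on day 6, 376 on day 7 and 291 on day 8. The recovered reads behind these values were 1866 in MEF, 190 on day 4, 26 on day 5 and 8 on day 8. The largest steps were those to day 2, 3.64-fold lower than on day 1 (95% counting interval 3.21 to 4.14), and to day 5, 5.01-fold lower than on day 4 (3.32 to 7.87). The first of these lay before day 3, the first day with named feeders, and the second after it. The intervals of the steps to day 6 and to day 8 held 1. Day 8 was 415-fold lower than MEF (210 to 962). In bulk RNA, fewer cells that make a miRNA and less of it per cell cannot be told apart.

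Mir675 followed the same course at a lower FPKM, until too few reads were left to follow it. Its FPKM was 11519 in MEF, 5049 on day 1, 1285 on day 2, 534 on day 3, 327 on day 4, 120 on day 5, 134 on day 6, 36.6 on day 7 and 20.3 on day 8. These rested on 266 reads in MEF, 35 on day 2, 12 on day 4 and 3 on day 5. Days 7 and 8 came to 1.60 and 0.83 read. Within 0.05 read, 5 of 11 values of Mir675 and 6 of 11 of Mir483 were whole, and how the authors shared reads that match several places is not given in the sources used here. The intervals of the steps down to day 3 excluded 1, and those of the 5 later steps held it. Day 8 was 568-fold lower than MEF, with a counting interval from 88.9 to 42506, so the size of the late decline was not measurable at this depth.

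**Figure D2:**
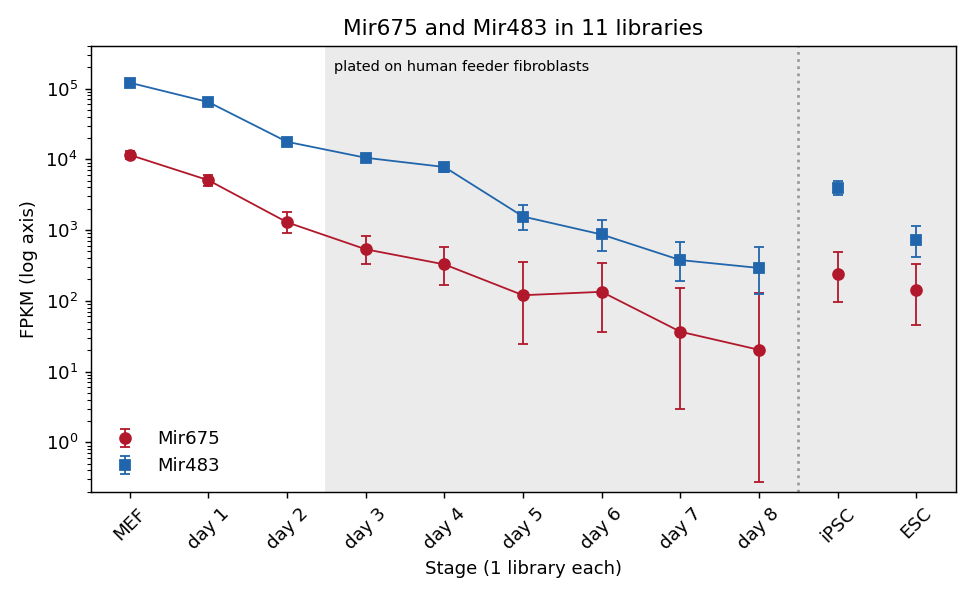
FPKM of Mir675 (red circles) and Mir483 (blue squares) on a log axis in the 11 libraries, 1 per stage, with 95% Poisson counting intervals as bars; the shaded stages were plated on human feeder fibroblasts. Mir483 was lower at each step to 291 FPKM on day 8, Mir675 reached 20.3, and the FPKM of both in iPSC and ESC was above that of day 8.

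Days 7 and 8 were also the libraries with the lowest share of reads in the table, and the part of this in the late values was not tested. Counted per miRNA read of its library, Mir675 was 294-fold lower on day 8 than in MEF and Mir483 215-fold lower. In reads per 1000000 miRNA reads, Mir483 stood at 336 in MEF, 19.9 on day 4, 2.75 on day 6, 2.41 on day 7 and 1.56 on day 8. In the same unit, Mir675 was at 47.9 in MEF, 0.545 on day 5, 0.636 on day 6, 0.349 on day 7 and 0.163 on day 8. Its day 6 value rested on 3.94 reads, in a library where the table took 44.8% of implied mapped reads. On day 3, the first day on human feeders, both genes were lower than on day 2. Mir675 was 2.41-fold lower (1.36 to 4.36) and Mir483 1.68-fold lower (1.43 to 1.98). In log2(FPKM + 10), day 3 minus day 2 was -1.25 for Mir675 and -0.75 for Mir483. The median was -0.05 over the 1419 transcripts with a mean of at least 10 FPKM. Mir675 ranked 254 and Mir483 406 from the lowest of these, so many other transcripts fell further at this step.

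The slope over MEF, placed at day 0, and days 1 to 8 puts the genes on a scale with all others. On log2(FPKM + 10), Mir675 had a slope of -1.05 ± 0.09 per day and Mir483 of -1.14 ± 0.08 (SE of the limma fit over 9 libraries). They ranked 11th and 8th from the lowest among 1419 transcripts with a mean of at least 10 FPKM, whose median slope was 0.02. Mir675 and Mir483 averaged 1764 and 20792 FPKM over the 11 libraries, with 59.4% and 52.8% of their summed FPKM from MEF, and both were above 10 FPKM in every library. With a pseudocount of 1 FPKM their ranks were 22 and 19, and within days 3 to 8, all on named feeders, 59 and 19. Of the 1419 transcripts tested, 177 (12.5%) rose and 150 (10.6%) fell at a limma adjusted p under 0.05. After scaling to miRNA reads 339 rose and 107 fell. Leaving out MEF, day 1 or day 6 gave 93, 110 or 114 that rose, and leaving out day 7 or day 8 gave 97 or 98 that fell. Day 8 minus MEF, the median log2 difference over the 1419 transcripts was 0.88, while that of Mir675 was -8.57 and that of Mir483 -8.65. On the same comparison, 241 of 1419 transcripts (17.0%) were at least 4-fold lower on day 8. This and later counts at 4-fold were made on FPKM + 10 unless another pseudocount is named. Folds of Mir675 and Mir483 are of plain FPKM.

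**Figure D3:**
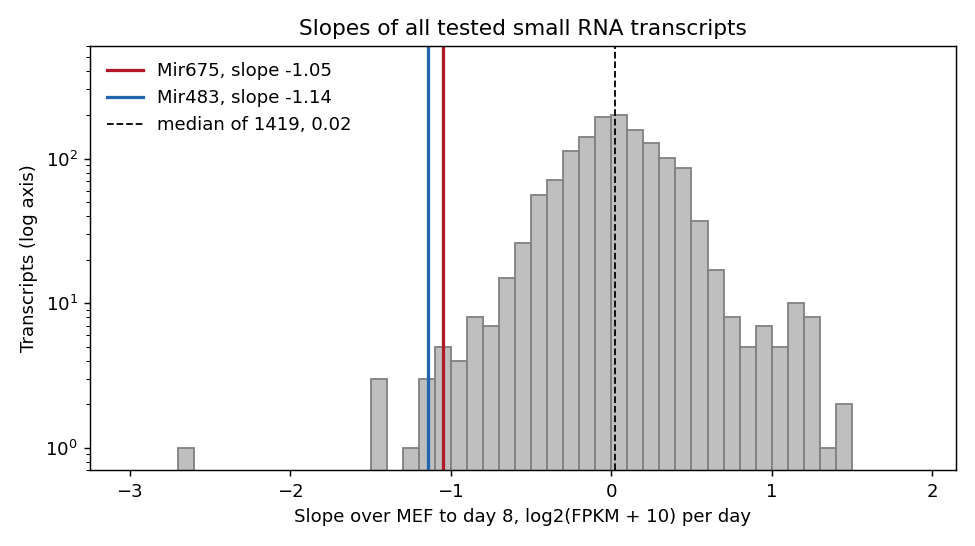
Histogram of the slopes of 1419 small RNA transcripts over MEF to day 8 in log2(FPKM + 10) per day, with the number of transcripts on a log axis; lines mark Mir675 (red), Mir483 (blue) and the median (dashed). Mir675 at -1.05 and Mir483 at -1.14 lie in the low tail, far from the median of 0.02.

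Mir483 and Mir873, a miRNA of chromosome 4, were the 2 transcripts of 1419 (0.141%) with a lower FPKM at all 8 steps, a count made after the values were seen. Mir675 was lower at 7 of 8, as were 1.55% of the transcripts, and its day 6 value stood above day 5 by less than counting error. On the late days a difference of 1 read sets the order of steps in low transcripts.

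The ratio of the pair moved less than either level, where Mir675 spanned 568-fold and Mir483 415-fold between the highest and lowest library. The FPKM ratio of Mir483 to Mir675 was 10.5 in MEF (95% counting interval 9.21 to 12), 12.7 on day 1, 13.7 on day 2, 19.7 on day 3 (12.6 to 32.4), 23.8 on day 4 (13.3 to 46.9), 12.9 on day 5, 6.46 on day 6, 10.3 on day 7, 14.3 on day 8, 16.9 in iPSC and 5.08 in ESC (1.8 to 17.6). The highest ratio was 4.69 times the lowest. The intervals of days 3 and 4 lay above that of MEF, so in those libraries Mir483 was lower by a smaller factor than Mir675. From day 5 on, and in both lines, the intervals held the MEF ratio. FPKM of such short transcripts depends strongly on length, so the change of the ratio is safer than its size.

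**Figure D4:**
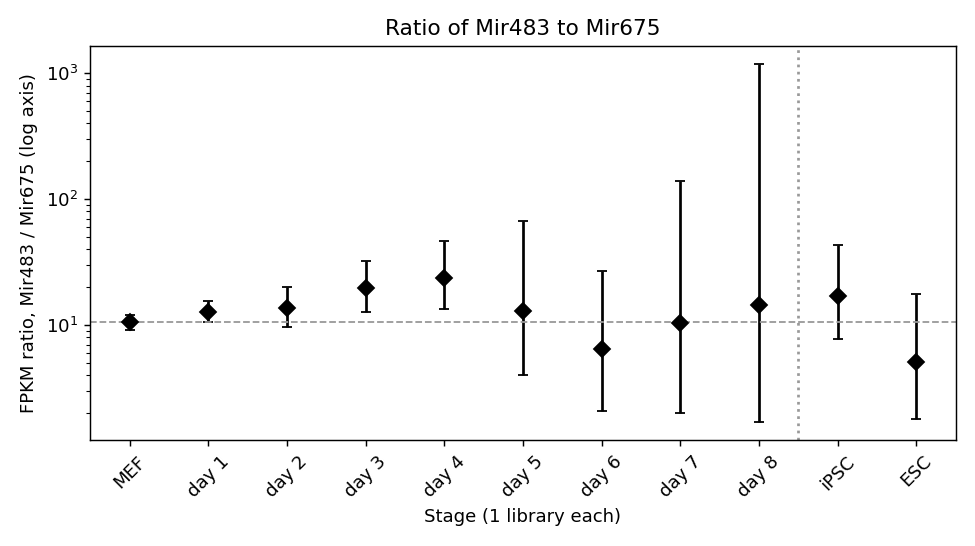
FPKM ratio of Mir483 to Mir675 on a log axis in the 11 libraries, 1 per stage, with 95% binomial counting intervals; the dashed line is the MEF ratio of 10.5. The ratio lies above the line on days 3 and 4, at 19.7 and 23.8, and the late intervals are wide.

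Both pluripotent lines were far below MEF for both genes, and against day 8 Mir483 in iPSC was the case whose higher level exceeded counting error with each scaling tried. Mir675 was at 236 FPKM in iPSC and 141 in ESC, on 7 and 5 reads, which was 48.8-fold (23.3 to 123) and 81.8-fold (34.6 to 254) lower than in MEF. Mir483 was at 3982 FPKM in iPSC and 715 in ESC, on 79 and 17 reads, 30.3-fold (24.2 to 38.5) and 169-fold (105 to 290) lower than in MEF. After median-ratio scaling, which raises MEF relative to both lines, Mir675 was 135-fold lower in iPSC and 209-fold lower in ESC, and Mir483 84.1-fold and 432-fold lower. At least 4-fold lower in both lines than in MEF were 110 of 1419 transcripts (7.75%), and 421 (29.7%) were at least 4-fold higher in both. With that scaling the counts were 223 (15.7%) and 240 (16.9%).

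Between the lines Mir483 differed and Mir675 did not beyond counting error. The lines may differ in genotype, since that of ESC is unclear, and the part of genotype was not tested. Mir483 was 5.57-fold higher in iPSC than in ESC (3.27 to 10), where 154 transcripts (10.9%) were at least 4-fold higher. The ratio of Mir675 was 1.68 (0.458 to 6.7), an interval that includes the ratio of Mir483. Against day 8, the ESC ratio was 2.46 for Mir483, with a lower bound just above 1 and an upper one of 6.58, and 6.94 for Mir675 (0.69 to 612). After scaling to miRNA reads, the ESC ratio was 1.32 for Mir483 (0.538 to 3.52) and 3.71 for Mir675 (0.369 to 328). Also against day 8, Mir483 was 13.7-fold higher in iPSC (6.61 to 32.8) and Mir675 11.6-fold higher (1.33 to 982). Scaled to miRNA reads, these ratios were 7.06 (3.41 to 16.9) and 6.01 (0.684 to 506). At least 4-fold higher in iPSC than on day 8, a library with few reads in the table, were 321 transcripts (22.6%), and 178 (12.5%) after that scaling. Counted after the values were seen, 11 transcripts (0.775%) were at least 4-fold lower in both lines than in MEF and also at least 4-fold higher in iPSC than on day 8, and 24 (1.69%) were after median-ratio scaling. After scaling to miRNA reads the count was 8 (0.564%). The 11 found without scaling were both genes, the muscle miRNAs Mir206 and Mir1a-1, Mir873 with its neighbour Mir876, the imprinted Mir1188, Mir449a, Mir3099, Mir1251 and mmu-mir-6985. Mir206, Mir873, Mir876, Mir1251 and mmu-mir-6985 were listed at 0 on day 8. Mir206 was at 50.4 FPKM in iPSC, the worth of 1 read of a 73 nt transcript there. Mir1251 was at 33.7 FPKM in iPSC, the worth of 1 read of an 84 nt transcript.

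In the order of levels, Mir483 ran from MEF through days 1, 2, 3 and 4, iPSC and days 5 and 6 to ESC, day 7 and day 8. Neighbours in this order differed beyond counting error down to day 5, and from day 5 to day 8 they did not. The order of Mir675 was MEF, days 1, 2, 3 and 4, iPSC, ESC and days 6, 5, 7 and 8. There, neighbours differed beyond counting error down to day 3 and not below it.

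The 5 profiles most like each gene were those of the other gene of the pair, muscle miRNAs and, for Mir483, Mir873. Likeness was measured as the root mean square difference of log2(FPKM + 10) between profiles centred on their own means, over 11 libraries, whose depth and scaling all transcripts share. For Mir483 the nearest of 1418 transcripts was Mir675, at 0.65, followed by Mir133a-2 and Mir133a-1 (both 0.91), Mir873 (0.92) and Mir1a-1 (0.93), where the median over all was 3.12. For Mir675 the nearest were Mir1a-1 (0.56), Mir133a-1 (0.60), Mir133a-2 and Mir483 (both 0.65) and Mir1b (0.83), with a median of 2.92. The miR-1 and miR-133 genes serve the differentiation of skeletal and heart muscle. Mir133a-1 and Mir133a-2 share a mature sequence, and so do not count as separate likenesses. Mir1a-1 and Mir133a-2 both lie on chromosome 2, and Mir133a-1 and Mir1b both on chromosome 18. Whether the genes of a chromosome are made together was not tested. Mir1b lies antisense to Mir1a-2 in the annotation, and reads of the pair cannot be told apart unless strand was used in counting, which is not given in the sources used here.

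Mir1a-1 was at 49796 FPKM in MEF, 3348 on day 2, 563 on day 4, 437 on day 6, 188 on day 8, 1084 in iPSC and 362 in ESC. Mir133a-1 was at 60284 in MEF, 2120 on day 2, 618 on day 4, 154 on day 6, 65.9 on day 8, 274 in iPSC and 254 in ESC. Day 1 already stood at 11964 FPKM for Mir1a-1 and 11374 for Mir133a-1, a steeper first step than those of Mir675 (2.28-fold lower, 1.84 to 2.84) and Mir483 (1.88-fold lower, 1.74 to 2.03).

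**Figure D5:**
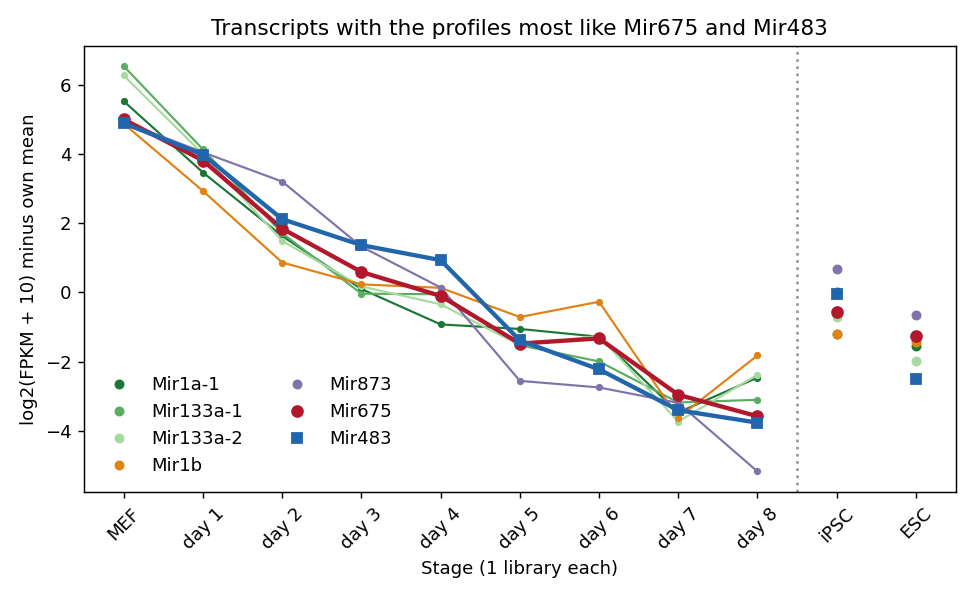
Log2(FPKM + 10) minus each transcript's own mean by stage, for Mir675 (red), Mir483 (blue) and the 5 other transcripts named as most like either. All were lower on day 7 than in MEF and higher in iPSC than on day 8. The 5 were picked for likeness over these same libraries, so a shared shape follows from the choice.

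Markers of other cell types moved over the same libraries, and their part in the values of Mir675 and Mir483 was not tested. Of 8 muscle miRNAs, 6 fell with time and 1 rose, against 10.6% and 12.5% of all 1419 tested. The summed FPKM of the 8 ranged from 18342 to 99410 over days 1 to 8, against 193157 in MEF. It was 20464 in iPSC and 14769 in ESC. On day 6, 96873 of the 99410 came from 1 member, Mir499, so the sum did not track the members that fell. In iPSC, Mir499 was at 9828 FPKM and Mir208b, called in neither direction, at 8798, against 4052 for Mir208b in MEF. Mir206 was listed at 0 on days 5, 7 and 8 and in ESC. The riser was Mir499, from an intron of a myosin gene, at 722 FPKM in MEF and 96873 on day 6, with a slope of 0.71 ± 0.20 (limma adjusted p = 0.0317). That call was lost without MEF (0.132), day 1 (0.0926) or day 6 (0.0637).

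Where 10.6% of all 1419 tested fell and 12.5% rose, 3 of 7 myeloid and blood miRNAs fell, among them Mir486 (slope -0.47 ± 0.09, limma adjusted p = 0.00575). The sum of the 7 ranged from 86106 to 506818 FPKM over days 1 to 8 and was 808600 in iPSC and 351665 in ESC, against 921797 in MEF. The myeloid Mir223, which fell, was listed at 0 in both lines. Of other members, named after their values were seen, Mir142 was at 563551 FPKM in iPSC and 187969 in ESC, against 232146 in MEF. Mir150 was at 214088 in iPSC and 102402 in ESC, against 2493 in MEF, and neither passed the test over time. Of 8 fibroblast and mesenchymal miRNAs, 5 fell, among them Mir21 (slope -0.37 ± 0.06, adjusted p = 0.00396), and 2 without days 7 and 8 or after scaling to miRNA reads. Their sum ranged from 11370393 to 64944666 FPKM over days 1 to 8 and was 6024738 in iPSC and 26405874 in ESC, against 25552846 in MEF, where Mir143 is listed at 0. Mir143 alone was at 40549900 FPKM on day 1 and 17316200 in ESC, so these sums cannot be set against that of MEF. Any part of RNA from the human feeder fibroblasts in the values of days 3 to 8 and both lines was not tested. All 12 pluripotency miRNAs rose, with Mir292 at a slope of 1.21 ± 0.24 (adjusted p = 0.00738). Their sum ranged from 382891 to 46912324 FPKM over days 1 to 8 and was 21923202 in iPSC and 17966782 in ESC, against 21449 in MEF, where 5 of them were listed at 0. Mir295 was at 31201600 FPKM on day 8 but is listed at 0 in iPSC and ESC, and without it the sum was 15710724 on day 8.

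The slopes of miRNAs from other imprinted regions all lay above those of Mir675 and Mir483. The list covered the Mest, Gnas, Rasgrf1 and Dlk1-Dio3 regions, with 44 of 45 members tested, and ranged from -0.56 to 1.44 with a median of -0.14. Of these 44, 10 fell and 1 rose, against 10.6% and 12.5% of all 1419 tested. Leaving out MEF, day 7 or day 8 gave 6, 5 or 2 that fell, and Mir654, the 1 that rose, was not called without MEF, day 1 or day 6. Leaving out days 7 and 8 together, 2 rose and 0 fell at a limma adjusted p under 0.05. At an unadjusted limma p under 0.05, 4 rose and 2 fell. The same fit gave slopes of -1.12 for Mir675 and -1.19 for Mir483. At least 4-fold lower in both lines than in MEF were 6 of the 44 (13.6%), against 7.75% of all tested. The MEF and day 4 libraries list 5 of the Dlk1-Dio3 members at 0.

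Mir335, from an intron of the imprinted Mest gene, was at 669556 FPKM in MEF, 789906 on day 2, 366134 on day 6, 82441 on day 8, 617595 in iPSC and 274056 in ESC. It fell over the course (slope -0.43 ± 0.10, limma adjusted p = 0.0171), a call lost without day 8 (0.0723). Up to day 3 it was no lower than in MEF, when Mir675 and Mir483 were already at 4.64% and 8.7% of their MEF levels. Mir298 and Mir296, of the Gnas region, did not pass the test in either direction. Mir298 was at 736993 FPKM in MEF, 3009150 on day 6, 1003590 on day 8, 3632680 in iPSC and 2186870 in ESC, and Mir296 stayed between 37525 and 106925 in all libraries. Mir184, near Rasgrf1, did not pass either, at 21531 FPKM in MEF, 7962 on day 8, 204018 in iPSC and 22843 in ESC.

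Of the abundant Dlk1-Dio3 miRNAs, Mir541 was at 15936300 FPKM in MEF, 905984 on day 8, 4915720 in iPSC and 6100090 in ESC. Its slope was -0.39 ± 0.10 (limma adjusted p = 0.0251), a call lost without MEF (0.0605), day 7 (0.0671) or day 8 (0.125). Mir410 was at 3083760 FPKM in MEF, 457621 on day 8, 1315320 in iPSC and 1131100 in ESC, with a slope of -0.27 ± 0.09 (adjusted p = 0.0525). Whether the slopes of Mir675 and Mir483 differ from those of other imprinted miRNAs was not tested, since both were chosen on these values.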

How the data were processed

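The authors deposited FPKM per small RNA gene and library. Tools listed in the submitters' processing notes are Cufflinks 2.2.1, Bowtie2 2 and CASAVA 1.8.2, with the build mm10 and no roles. Annotation and filter: not given in the sources used here. IDs were matched to GENCODE vM21 (3712 of 3859 found), which also gave positions, and a gene counted as a miRNA by its type there. Per the labels' protocols, a TruSeq small RNA kit and gel size selection were used.

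The worth of 1 read per library came from the commonest low values below 200 FPKM, with effective lengths for an assumed fragment length of 200 ± 80 nt and a correction per transcript length. The share of whole values (within 0.05 read) was 91.7% of the 4813 from 0.5 to 5.5 reads, but these values also set the scale. Since this rests on a model, no count test was run. Poisson and binomial bounds were computed in SciPy 1.17.1, in their gamma and beta forms where reads were not whole.

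Slopes were fitted with limma 3.58.1 in R 4.3.3 on log2(FPKM + 10), for the 1419 transcripts that averaged at least 10 FPKM (two-sided, Benjamini-Hochberg, threshold 0.05), and the script was tested on simulated data. A p-value here measures scatter of 9 libraries around a line, not the spread between cultures. The 2 genes and all lists were chosen with earlier results of these data known. Other named genes were the 5 profiles most like each gene, the tested imprinted miRNAs outside Dlk1-Dio3, and the most abundant member above 0 in every library of each marker list (2 for Dlk1-Dio3). Alternatives changed the pseudocount, the filter, the scaling and the libraries fitted.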

Additional observations from a re-analysis of the deposited data

How the results depend on the processing

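No paired analysis was possible because each stage had 1 library and the labels give no replicate numbers. In the 62 alternatives run for Mir675 and Mir483, every slope and difference kept its sign. Leaving out 1 library gave slopes from -1.10 to -0.99 for Mir675 and from -1.19 to -1.12 for Mir483. The slope of Mir675 was -0.81 with a pseudocount of 100 and -0.84 within days 3 to 8. Scaling to miRNA reads gave -0.93 for Mir675 and -1.0 for Mir483, and 339 rising transcripts. Scaling by the median ratio over 787 transcripts, which multiplies MEF values by more than any other (factor 0.546, log2 -0.87), gave iPSC differences from MEF of -6.99 for Mir675 and -6.39 for Mir483, and ESC differences of -7.57 and -8.73. Leaving out 1 library gave 93 to 175 rising and 97 to 170 falling transcripts, and without days 7 and 8, added after the data were seen, 69 fell. At least 4-fold lower in both lines than in MEF were 70 with a pseudocount of 100 and 71 with a mean of at least 100 FPKM. Scalings added after the data were seen gave other counts: by the median ratio, 223 lower and 240 higher in both lines than in MEF, 182 higher in iPSC than on day 8, and 24 both so and lower in both lines than in MEF; by miRNA reads, 178 higher in iPSC than on day 8. In the imprinted list, 3 rose with miRNA scaling, 0 with no filter and 2 without days 7 and 8, where 0 fell with limma. Without days 7 and 8, 4 of the list rose and 2 fell at an unadjusted limma p under 0.05. In the same list, leaving out 1 library gave 0 to 1 rising and 2 to 12 falling. Mir410 passed in 4 alternatives, from 0.0281 with a pseudocount of 100 to 0.0488 with no filter. The cause of these shifts was not tested. Depth limits Mir675, with 6 of 11 values under 10 reads, and 1 of 11 for Mir483.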
